A study of Mus musculus with 6 samples.

Results

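The 10 genes described here encode the proteins that bring cystine into the cell and make, recycle, use and break down glutathione, the main small thiol antioxidant of animal cells. They were taken by gene symbol from a table of 56691 genes, in which each of the 10 symbols stood on a single row. They were chosen by their role and with the fold changes of this same comparison already known, counts and FPKM alike, so their differences between the groups are given as a description, without p-values. The deposited annotation assigns 8 of them to KEGG glutathione metabolism and 5 to KEGG ferroptosis.

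RNA was measured in 6 libraries of bone marrow stromal cells (BMSCs) from wild-type mice, the adherent marrow cells that can form bone, fat and cartilage. CM libraries (n = 3) came from cells differentiated towards osteoblasts for 7 days in medium with conditioned medium of Hepa 1-6, a mouse hepatoma cell line. Control libraries (n = 3) came from cells treated alike with control medium. Both media held 10% FBS, penicillin and streptomycin, 50 µg/ml ascorbic acid and 1.08 mg/ml beta-glycerophosphate, and were changed every 2 days. The sources used here do not say whether control medium had been conditioned by any cells, so an effect of hepatoma products and an effect of conditioning as such cannot be told apart. No source used here says whether replicates came from separate animals or cultures, so the spread between them may be technical.

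Cystine, the oxidised pair of cysteines found in medium and plasma, enters cells through system xc-, an exchanger made of the light chain Slc7a11 (xCT), which moves cystine in and glutamate out, and the heavy chain Slc3a2 (CD98), which brings it to the membrane. Inside the cell cystine is reduced to cysteine, glutamate-cysteine ligase joins it to glutamate, and glutathione synthetase adds glycine. Glutathione peroxidases spend glutathione to reduce hydrogen peroxide and lipid peroxides, glutathione reductase restores it with NADPH, and Chac1 cleaves it. Loss of cystine uptake or of Gpx4 can lead to ferroptosis, a form of cell death driven by iron and peroxidised lipids. Slc7a11 and Chac1 are known targets of the stress factor ATF4, and Slc7a11, Gclc, Gclm and Gsr of the antioxidant factor NRF2.

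The genes furthest apart between the groups were Gclm, Slc7a11 and Chac1, and the 250 bases upstream of their start sites are shown because Gclm and Chac1 were lower and Slc7a11 higher in CM, and because Slc7a11 and Chac1 share a motif. The bases are those of RefSeq on the GRCm38.p6 build, read 5′ to 3′ on the strand of the gene. They cover chr3:122245307-122245556 (plus strand) for Gclm, chr3:50443614-50443863 (minus strand) for Slc7a11 and chr2:119350992-119351241 (plus strand) for Chac1. Capitals mark matches, on either strand, to TGATGNAA, the core of the amino acid response motif bound by ATF4 with C/EBP partners, or to TGACNNNGC, the core of the antioxidant response motif bound by NRF2 with small Maf proteins.
Gclm: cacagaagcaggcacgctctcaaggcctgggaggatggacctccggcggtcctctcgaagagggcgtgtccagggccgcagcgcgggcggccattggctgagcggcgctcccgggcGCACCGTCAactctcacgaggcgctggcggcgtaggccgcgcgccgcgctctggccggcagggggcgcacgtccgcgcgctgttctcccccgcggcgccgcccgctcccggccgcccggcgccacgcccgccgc
Slc7a11: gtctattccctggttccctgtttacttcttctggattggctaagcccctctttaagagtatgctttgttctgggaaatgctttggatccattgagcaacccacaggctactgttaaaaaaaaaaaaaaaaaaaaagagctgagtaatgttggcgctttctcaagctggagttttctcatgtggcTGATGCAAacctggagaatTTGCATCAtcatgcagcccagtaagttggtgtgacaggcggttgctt
Chac1: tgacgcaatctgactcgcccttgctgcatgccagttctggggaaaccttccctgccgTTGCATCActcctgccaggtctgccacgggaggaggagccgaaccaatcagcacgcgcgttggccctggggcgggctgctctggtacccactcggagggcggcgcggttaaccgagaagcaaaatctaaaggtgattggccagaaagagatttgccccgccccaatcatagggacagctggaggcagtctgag

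Slc7a11 held 2 matches to TGATGNAA, TGATGCAA at -66 to -59 and TTGCATCA, the same word on the other strand, at -47 to -40, counted from the start site. Chac1 held 1 match, TTGCATCA at -193 to -186. The motif was present in 3.45% of 32851 mouse promoter windows of the same length, and 13 windows, or 0.0396%, held at least 2 matches. Gclm held 1 match to TGACNNNGC, as GCACCGTCA at -134 to -126, a motif present in 10.2% of the windows. No match to one motif overlapped a match to the other in these 3 windows. The 8 genes with a window had 11 in all, of which 4 were Gpx4 starts, and among them TGATGNAA was matched in 2 genes and TGACNNNGC in 1. No window was found for Gclc and Gsr, so neither was searched for the motifs. Slc7a11, Chac1 and Gclm were already known as targets of ATF4 or NRF2, so nothing is read from the shares of windows. A match is a description of the letters, and binding was not measured.

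The libraries held 19075341 to 21329475 counts in CM and 18661629 to 20808829 in Control. The first principal component of all tested genes took 83.0% of the variance and separated the groups. Replicates differed by more than sampling noise, and the chi-square divided by its degrees of freedom was 2.24 to 2.70 for pairs of CM libraries and 4.10 to 9.03 for pairs of Control libraries. The cultures were mixed. The summed level of 10 macrophage markers was 6001 to 6688 FPKM (counts scaled by exonic length and library total) in CM and 8380 to 9705 FPKM in Control. Lyz2, whose reads can be shared with its near copy Lyz1, and C1qb led that list, and Lyz2 alone was at 4571 ± 355 FPKM in CM and 6683 ± 592 FPKM in Control. The list did not move one way. By edgeR 7 of its 10 genes fell and 3 rose, namely Adgre1 (585 FPKM in CM and 457 FPKM in Control), Fcgr1 (96.2 FPKM in CM and 44.2 FPKM in Control) and Mrc1 (107 FPKM in CM and 100.11 FPKM in Control). The 8 osteoblast markers summed to 651 to 704 FPKM in CM and 813 to 901 FPKM in Control, led by Col1a1 and Alpl. All 6 that were tested fell, and the late markers Bglap and Dmp1 had 2 and 12 counts over the CM libraries and 2 counts each over the Control libraries. The 8 marrow stromal markers, led by Col3a1 and Ly6a, summed to 580.05 to 599.74 FPKM in CM and 459 to 473 FPKM in Control. Of 7 tested 4 rose and 2 fell, namely Vcam1 (14.9 FPKM in CM and 30.5 FPKM in Control) and Pdgfrb (39.2 FPKM in CM and 47.0 FPKM in Control). The 9 neutrophil markers summed to 25.5 to 29.5 FPKM in CM and 5.73 to 8.79 FPKM in Control, with S100a8 at 24.5 ± 1.84 FPKM in CM and 3.71 ± 0.936 FPKM in Control. Its partner S100a9 went the other way, at 0.867 ± 0.458 FPKM in CM and 1.95 ± 0.275 FPKM in Control (log2 fold change -1.13 ± 0.41, adjusted p = 0.027 by edgeR) on 28 counts in CM and 61 in Control. Ngp had 22 counts in CM and 77 in Control, and Ly6g and Cxcr2 had 0 counts in CM and 1 count each in Control. Of 3 tested neutrophil markers 2 rose, S100a8 and Camp, and 1 fell, S100a9. Camp had 87 counts in CM and 13 in Control (2.69 ± 0.42, adjusted p = 1.7e-05 by edgeR). Mpo, Prtn3 and Elane had 24, 10 and 3 counts in CM and 1, 2 and 0 in Control. CM replicate 2 alone held 19 of the Mpo counts. The 5 endothelial markers, with Emcn and Cdh5 as the most abundant, summed to 24.4 to 24.8 FPKM in CM and 21.5 to 22.9 FPKM in Control. Of 4 tested 1 rose, Emcn, and 1 fell, Kdr (1.11 FPKM in CM and 1.54 FPKM in Control). Of 9 liver and hepatoma markers, 5 were at 0 in every library, among them Hnf4a and Ttr, and the list summed to 1.39 to 1.54 FPKM in CM and 1.31 to 1.51 FPKM in Control, almost all of it Afp, followed by Apob with 28 counts in CM and 15 in Control. The 6 red cell markers summed to 0.15 to 0.16 FPKM in CM and 0.07 to 0.64 FPKM in Control, led by Alas2, with 23 counts in CM and 18 in Control, and Hba-a1, with 0 counts in CM and 4 in Control. In such bulk RNA a change in the number of cells of a type and a change in RNA per cell cannot be told apart, and the part of these shifts in the values below was not tested.

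All 10 genes passed the filter on low values, a mean of at least 1 FPKM over the 6 libraries. Log2 fold changes are CM over Control, with the standard error (SE), from edgeR's quasi-likelihood fit to the counts of all 12153 genes that passed. Slc7a11, Gsr and Gpx3 were higher in CM past the threshold of that fit (adjusted p under 0.05) and Gclm and Chac1 were lower, which makes 5 of 10 genes where 45.9% of all tested genes passed it (23.0% higher and 22.9% lower). Slc7a11, Gclm and Chac1 were also at least 2-fold apart, as were 5.28% of all tested genes. Nothing is read from these shares, since the genes were chosen with the comparison known. The median log2 fold change of the 10 genes was -0.02 and that of all tested genes was 0.00, and the median absolute log2 fold change was 0.19 for the 10 genes and 0.18 for all tested genes.

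**Figure D1:**
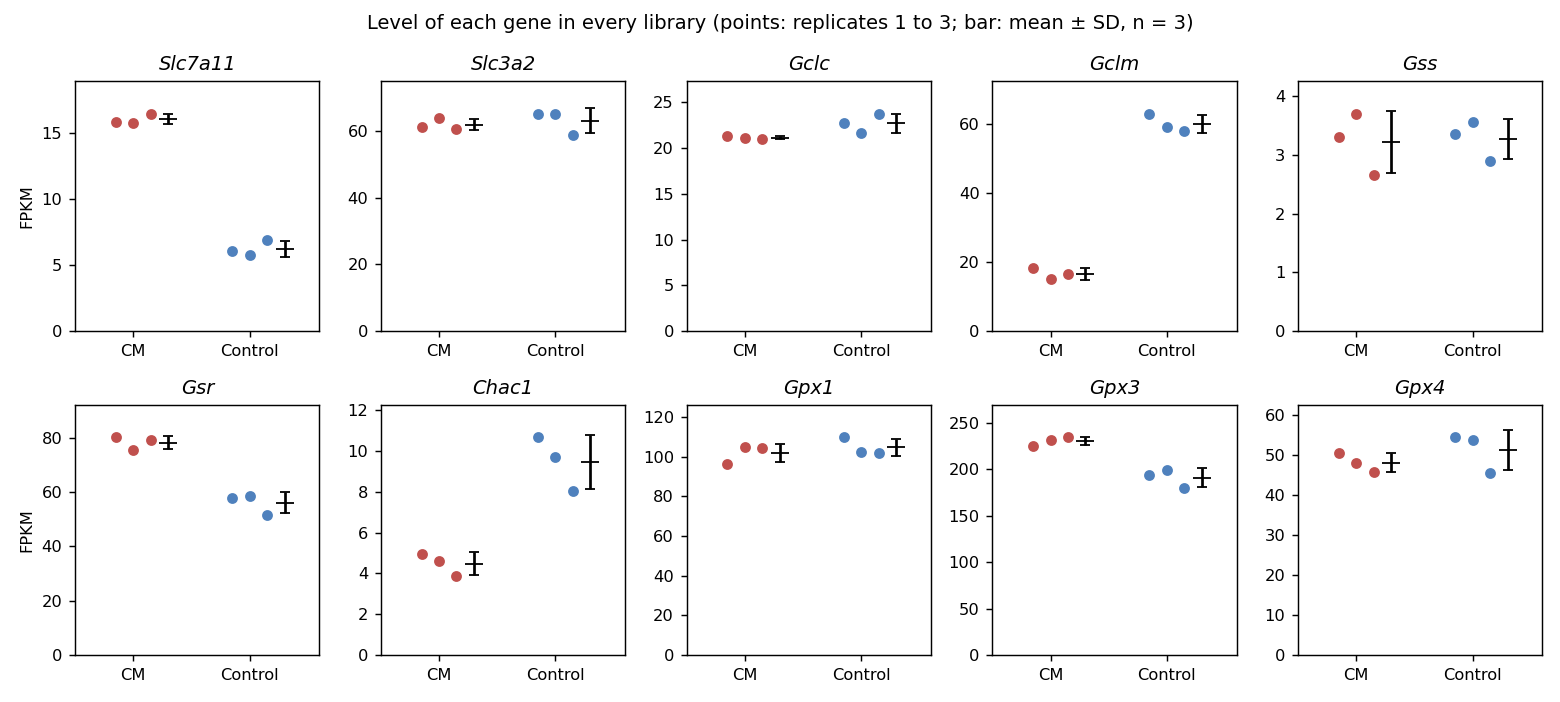
Level of each of the 10 genes in FPKM (vertical axes, from 0) in the 3 CM and 3 Control libraries (points), with the mean ± SD beside them. The CM points of Slc7a11, Gsr and Gpx3 lie above all Control points, those of Gclm, Chac1 and Gclc lie below them, and those of Slc3a2, Gss, Gpx1 and Gpx4 overlap with them.

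Of the 2 chains of the cystine exchanger the light chain was higher in CM, and the heavy chain showed no call. Slc7a11 was at 15.8, 15.8 and 16.4 FPKM in CM replicates 1 to 3, against 6.07, 5.74 and 6.91 FPKM in Control replicates 1 to 3. Every CM library lay above every Control library, and Control replicate 3 was the highest of its group. The means were 16.0 ± 0.372 FPKM in CM and 6.24 ± 0.603 FPKM in Control (SD, n = 3 each), a 2.59-fold difference (log2 fold change 1.37 ± 0.056). A difference as large in that direction was found in 256 of the 12153 tested genes, Slc7a11 included, or 2.11%. The gene lies on chromosome 3 at 49846975 to 50398063, minus strand (GRCm39, as the table gives the whole gene), and the counts behind these values numbered 13650 in CM and 5204 in Control.

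Slc3a2, on chromosome 19 at 8684246 to 8700733 (minus strand), was at 61.3, 63.8 and 60.7 FPKM in CM and at 65.2, 65.2 and 58.7 FPKM in Control. The groups overlapped, with Control replicate 3 the lowest library and the other Control libraries the highest. The means were 61.9 ± 1.66 FPKM in CM and 63.0 ± 3.76 FPKM in Control, with a log2 fold change of -0.01 ± 0.047. The ratio of Slc7a11 to Slc3a2, on the FPKM scale, was 0.259 ± 0.0120 in CM and 0.0996 ± 0.0159 in Control, and its lowest CM value (0.247) lay above its highest Control value (0.118). Per length, Slc3a2 thus stayed the more abundant chain in all 6 libraries. FPKM divides by every annotated exon base, 13922 for Slc7a11 and 3529 for Slc3a2, so levels set between genes depend on that annotation. On raw counts the chains were nearly equal in CM, with 13650 for Slc7a11 and 13369 for Slc3a2.

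The heavy chain also carries other light chains, and these moved apart. Of 5 such genes 4 were tested, of which 1 rose and 2 fell (median log2 fold change -0.08). Slc7a5 (LAT1), which imports large neutral amino acids, fell to 14.0 ± 0.848 FPKM in CM, against 23.3 ± 0.613 FPKM in Control (log2 fold change -0.72 ± 0.054, adjusted p = 4.3e-10). Slc7a6 (y+LAT2) rose by 0.37 ± 0.056 (adjusted p = 1.4e-05). Slc7a7 (y+LAT1) was at 9.44 ± 0.313 FPKM in CM and 10.8 ± 0.536 FPKM in Control (-0.18 ± 0.064, adjusted p = 0.028), a call lost without CM replicate 1 or 2 or without Control replicate 1 or 3 (adjusted p of 0.051 to 0.11) and with DESeq2 or without the filter on low values (adjusted p = 0.063 and 0.057). Slc7a8 did not pass the threshold (0.01 ± 0.053, adjusted p = 0.86) and Slc7a10 was at 0 in every library.

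Glutamate-cysteine ligase, the rate-limiting enzyme of glutathione synthesis, is a pair of a catalytic subunit, Gclc, and a modifier subunit, Gclm, which lowers its feedback inhibition by glutathione. The modifier showed the largest difference of the 10 genes. Gclm was at 18.28, 14.97 and 16.54 FPKM in CM replicates 1 to 3, against 63.0, 59.0 and 57.9 FPKM in Control. The highest CM library lay far below the lowest Control library. The means were 16.6 ± 1.66 FPKM in CM and 60.0 ± 2.67 FPKM in Control, a 3.57-fold lower level in CM (log2 fold change -1.84 ± 0.057). A difference as large in that direction was found in 64 of the 12153 tested genes, Gclm included, or 0.527%. Gclm lies on chromosome 3 at 122039206 to 122064381, plus strand. The antisense gene Gm17494, which overlaps it, had 8 to 22 counts per library in CM and 16 to 46 in Control, beside 1796 to 2394 counts of Gclm in CM and 7391 to 7576 in Control.

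Gclc, on chromosome 9 at 77661817 to 77701767 (plus strand), was at 21.34, 21.06 and 21.01 FPKM in CM and at 22.7, 21.6 and 23.8 FPKM in Control. The groups did not overlap, but the gap between the highest CM and the lowest Control library was small, and the log2 fold change of -0.09 ± 0.049 did not pass the threshold. Groups without overlap were found for 6 of the 10 genes, 3 with CM above and 3 with CM below Control, and for 53.4% of all tested genes (26.6% above and 26.8% below). The ratio of Gclc to Gclm on the FPKM scale was 1.17, 1.41 and 1.27 in CM, against 0.361, 0.367 and 0.411 in Control. The modifier was therefore the more abundant subunit per length in every Control library and the less abundant in every CM library. The order in CM depends on the annotated exon bases, 6291 for Gclm and 3766 for Gclc. On raw counts Gclm stayed above Gclc in CM, with 2394, 1796 and 2220 counts against 1673, 1513 and 1688.

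Gss, which encodes glutathione synthetase and completes the molecule, was the least abundant of the 10 genes per length in both groups. It was at 3.30, 3.70 and 2.65 FPKM in CM and at 3.36, 3.55 and 2.89 FPKM in Control. The groups overlapped throughout, with replicate 3 the lowest library in each. The log2 fold change was -0.01 ± 0.11, on 1158 counts in CM and 1154 in Control. Gss lies on chromosome 2 at 155405101 to 155434730, minus strand, where Acss2 overlaps it on the other strand, with 81 to 121 counts per library in CM and 138 to 154 in Control. The sources used here do not say whether counting used strand, and without it the reads of such partners cannot be told apart.

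Chac1, a cytosolic gamma-glutamyl cyclotransferase that cleaves glutathione, was at 4.96, 4.61 and 3.87 FPKM in CM and at 10.7, 9.70 and 8.04 FPKM in Control. Every CM library lay below every Control library, and replicate 3 was the lowest of each group. The means were 4.48 ± 0.557 FPKM in CM and 9.47 ± 1.33 FPKM in Control, a 2.09-fold lower level in CM (log2 fold change -1.06 ± 0.12). The gene had the fewest counts of the 10, 448 in CM and 923 in Control. A difference as large in that direction was found in 258 of the 12153 tested genes, Chac1 included, or 2.12%. It lies on chromosome 2 at 119181710 to 119184862, plus strand. Its relative Chac2, which cleaves glutathione more slowly, was at 5.54 ± 0.178 FPKM in CM and 5.61 ± 0.954 FPKM in Control (log2 fold change -0.01 ± 0.14, adjusted p = 0.97).

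Gsr, which encodes glutathione reductase and returns oxidised glutathione to its reduced form, was at 80.05, 75.27 and 79.04 FPKM in CM and at 57.9, 58.6 and 51.5 FPKM in Control. All CM libraries lay above all Control libraries. The means were 78.1 ± 2.52 FPKM in CM and 56.0 ± 3.91 FPKM in Control, a 1.41-fold difference (log2 fold change 0.50 ± 0.050). Gsr lies on chromosome 8 at 34142551 to 34188191, plus strand.

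**Figure D2:**
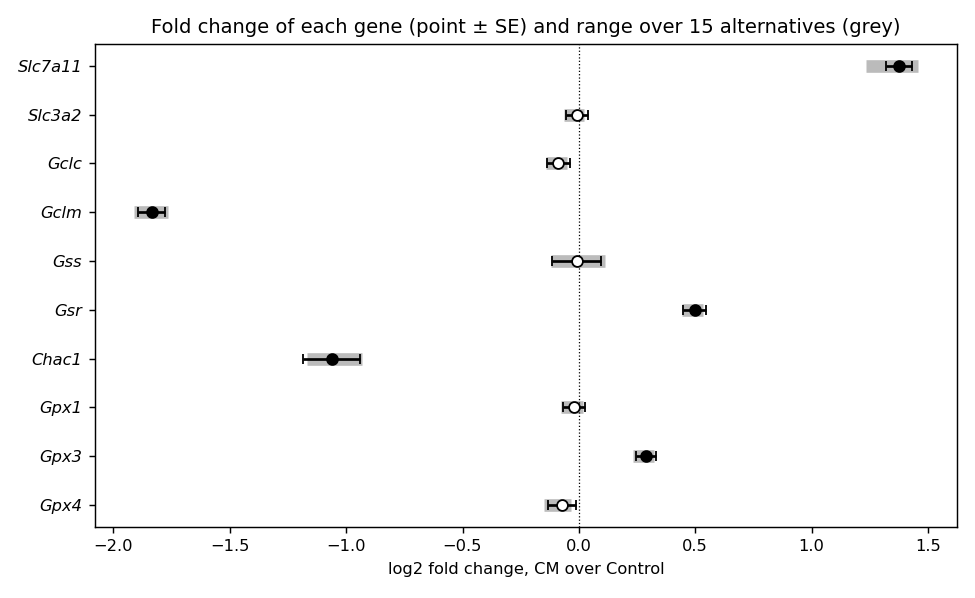
Log2 fold change (CM over Control) of each gene with its SE (points and bars), filled where the fit to all genes passed the threshold, and the range over 15 alternative settings (grey). Slc7a11 at 1.37, Gclm at -1.84 and Chac1 at -1.06 lie far from 0, and the grey range does not cross 0 for any of the 5 filled points.

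Per length, the glutathione peroxidases were the most abundant part of the set. Gpx3, the form secreted into plasma, was at 226, 232 and 235 FPKM in CM and at 193.83, 199.71 and 179.95 FPKM in Control. All CM libraries lay above all Control libraries, and the means of 231 ± 4.57 FPKM in CM and 191 ± 10.1 FPKM in Control differed 1.22-fold (log2 fold change 0.29 ± 0.044). Gpx1, the main cytosolic form, was at 96.4, 105 and 104 FPKM in CM and at 110, 103 and 102 FPKM in Control. These groups overlapped, with the lowest library in CM and the highest in Control (log2 fold change -0.02 ± 0.047). Gpx3 lies on chromosome 11 at 54793279 to 54801203 (plus strand) and Gpx1 on chromosome 9 at 108216102 to 108217542 (plus strand).

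Gpx4, the form that reduces lipid peroxides within membranes and restrains ferroptosis, was at 50.5, 47.9 and 45.6 FPKM in CM and at 54.3, 53.7 and 45.5 FPKM in Control. The groups overlapped because Control replicate 3 lay at the level of the lowest CM library. The log2 fold change was -0.07 ± 0.060 and did not pass the threshold, but it was -0.15 ± 0.047, past it, without Control replicate 3. Gpx4 lies on chromosome 10 at 79883000 to 79892273, plus strand. Its pseudogene copy Gpx4-ps2 had 661 counts in CM and 654 in Control, beside 5066 counts of Gpx4 in CM and 5260 in Control, so reads of this family may have been split and its values are uncertain.

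Of the other members of the family, which were not among the 10 genes, Gpx7 and Gpx8, both of the endoplasmic reticulum, were tested and both rose. Gpx7 was at 16.1 ± 0.716 FPKM in CM and 11.9 ± 0.903 FPKM in Control (log2 fold change 0.46 ± 0.083, adjusted p = 0.00011), and Gpx8 rose by 0.28 ± 0.047 (adjusted p = 4e-05). Gpx2, Gpx5 and Gpx6 were at 0 in every library. The 5 expressed genes summed to 505 ± 6.42 FPKM in CM and 449 ± 21.2 FPKM in Control. Gpx3 took 45.7% ± 0.345 of this sum in CM and 42.6% ± 0.525 in Control, while Gpx1 took 20.2% ± 0.703 in CM and 23.3% ± 1.01 in Control. Gpx4 took 9.51% ± 0.602 in CM and 11.4% ± 0.586 in Control (SD, n = 3 each). For each of these 3 shares the groups did not overlap.

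**Figure D3:**
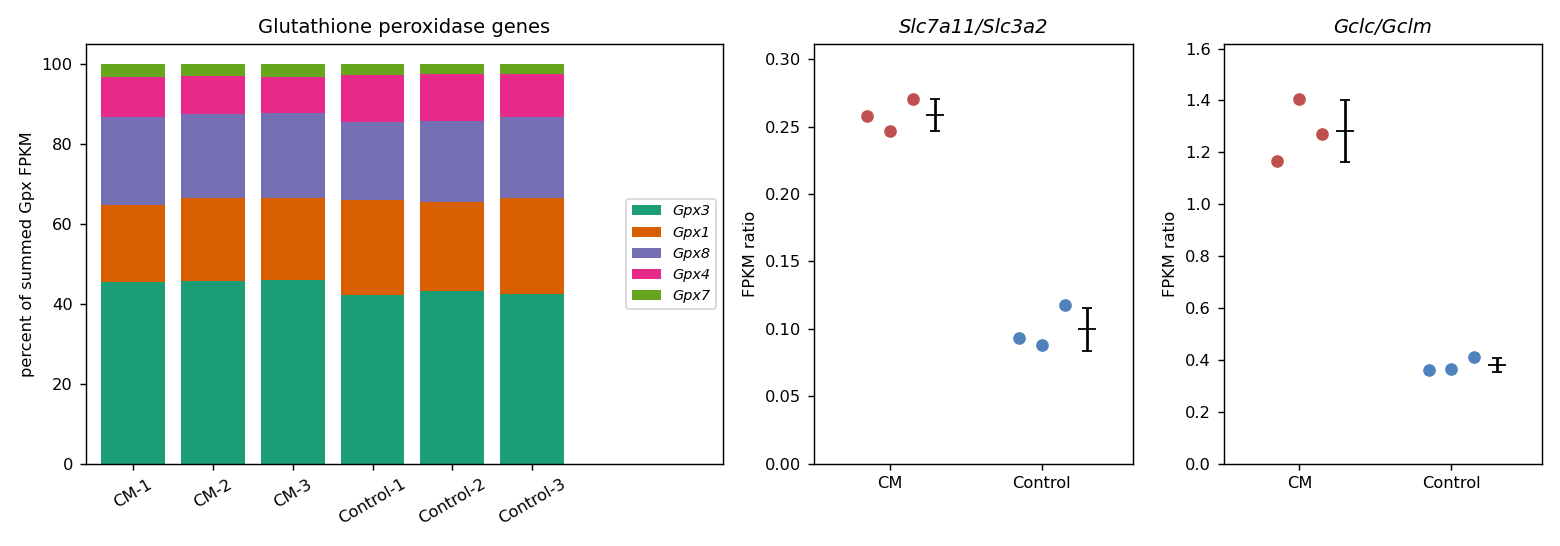
Percent of the summed FPKM of 5 glutathione peroxidase genes taken by each in every library (stacked bars), and the FPKM ratios of Slc7a11 to Slc3a2 and of Gclc to Gclm in the 3 CM and 3 Control libraries (points, with mean ± SD). Both ratios are higher in every CM library, with means of 0.259 in CM against 0.0996 in Control and of 1.28 in CM against 0.379 in Control.

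By level per length, the order in CM ran from Gpx3 through Gpx1, Gsr, Slc3a2, Gpx4, Gclc, Gclm, Slc7a11 and Chac1 to Gss. The order in Control ran from Gpx3 through Gpx1, Slc3a2, Gclm, Gsr, Gpx4, Gclc, Chac1 and Slc7a11 to Gss. In CM the libraries of Gclm and Slc7a11 overlapped, as the single such pair of neighbours. In Control the neighbours Slc3a2 and Gclm, Gclm and Gsr, and Gsr and Gpx4 overlapped. Per length, Gclm thus held the seventh place in CM and the fourth in Control, and Slc7a11 changed places with Chac1. These places depend on the annotated exon bases. On raw counts Slc7a11 stayed above Chac1, with 13650 against 448 in CM and 5204 against 923 in Control. Gclm in Control had 22518 counts, above the 20709 of Gpx3.

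The tested genes outside the set whose profile over the 6 libraries lay nearest to that of Slc7a11 were Irak3, an inhibitor of Toll-like receptor signalling, Slc15a3, a lysosomal transporter of peptides and histidine, and Plpp3, a lipid phosphate phosphatase. Their Euclidean distances, over centred log2 CPM (counts scaled to library size), were 0.0998, 0.110 and 0.136. Irak3 was at 36.8 ± 0.206 FPKM in CM and 14.6 ± 0.773 FPKM in Control. With 2 groups of 3 libraries such a distance mostly reflects the size of the group difference.

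The rest of the pathway was described from 12 lists with 121 different genes outside the set, of which 99 were tested. Of these, 28 rose and 30 fell, and 41 did not pass the threshold (median log2 fold change -0.01). Over all tested genes 23.0% rose and 22.9% fell, and the counts of every list stand against those shares. The lists were drawn up with earlier results of these data known, and nothing is read from the difference. Among genes that the deposited annotation assigns to KEGG glutathione metabolism, leaving out the 10, 12 of 41 tested rose and 8 fell, and among those of KEGG ferroptosis 11 of 39 rose and 10 fell.

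Genes that supply or spend cysteine fell in 5 of 10 tested cases, and the other 5 did not pass the threshold (median -0.12). Cdo1, the dioxygenase that commits cysteine to breakdown, fell to 10.5 ± 0.806 FPKM in CM, against 23.5 ± 2.20 FPKM in Control (log2 fold change -1.14 ± 0.080, adjusted p = 1.6e-10). Csad, the next enzyme on the way to taurine, fell by 0.75 ± 0.10 (adjusted p = 2.5e-06), and Mfsd12, needed to import cysteine into lysosomes, fell by 0.47 ± 0.058 (adjusted p = 7.5e-07). Cth, which makes cysteine from cystathionine, was at 2.59 ± 0.107 FPKM in CM and 2.52 ± 0.146 FPKM in Control (adjusted p = 0.76).

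Genes of the gamma-glutamyl cycle and of glutathione breakdown rose in 4 of 8 tested cases and fell in 1 (median 0.12). The dipeptidase gene Dpep2 fell by 0.88 ± 0.093 (adjusted p = 9.3e-08), the aminopeptidase gene Anpep rose by 0.38 ± 0.066 (adjusted p = 7.1e-05) and Ggt7 rose by 0.39 ± 0.13 (adjusted p = 0.019). The Ggt7 call was lost without CM replicate 2 or Control replicate 2 (adjusted p = 0.068 and 0.090) and with limma on the TPM scale (adjusted p = 0.056). Of 6 genes of glutathione transport 2 rose and 2 fell (median -0.16). Slc25a39, which carries glutathione into mitochondria, fell by 0.24 ± 0.057 (adjusted p = 0.0014), the mitochondrial carrier gene Slc25a10 fell by 0.30 ± 0.091 (adjusted p = 0.0094, and 0.072 without CM replicate 2) and the exporter gene Abcc4 rose by 0.23 ± 0.064 (adjusted p = 0.0060, and 0.090 with limma on the TPM scale).

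Enzymes that use or resemble glutathione-linked thiols moved apart. Glrx, the cytosolic glutaredoxin, which removes glutathione from proteins, was at 62.1, 63.6 and 65.5 FPKM in CM and at 19.7, 19.1 and 19.4 FPKM in Control. It rose 3.33-fold (log2 fold change 1.73 ± 0.043, adjusted p = 4e-18), the largest rise in the 12 lists. In its list of glutaredoxins and glyoxalases 2 of 7 rose and 1 fell (median 0.12), with Hagh, a glyoxalase, at -0.49 ± 0.11 (adjusted p = 0.00084) and the formylglutathione hydrolase gene Esd at 0.18 ± 0.049 (adjusted p = 0.0043, with 0.12 and adjusted p = 0.0032 without Control replicate 3). The Esd call was lost with limma on each of 3 scales (adjusted p of 0.053 to 0.065). Of 13 peroxiredoxin and thioredoxin genes 6 rose and 4 fell (median -0.09). Prdx5 rose by 0.76 ± 0.048 (adjusted p = 2.7e-11) and Prdx6, a peroxidase that uses glutathione, by 0.71 ± 0.048 (adjusted p = 8.1e-11). Prdx1, the most abundant of them, fell to 337 ± 6.40 FPKM in CM, against 477 ± 30.1 FPKM in Control (adjusted p = 8.3e-09).

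Genes that supply the NADPH used by Gsr fell in 4 of 6 tested cases and rose in 1 (median -0.29). Pgd, of the pentose phosphate pathway, fell by 0.61 ± 0.045 (adjusted p = 3.8e-10), its first enzyme G6pdx by 0.25 ± 0.045 (adjusted p = 0.00011) and the isocitrate dehydrogenase gene Idh1 by 0.33 ± 0.043 (adjusted p = 2.1e-06).

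Gpx1, Gpx3 and Gpx4 are selenoproteins, which carry selenocysteine at the active site. Of 8 tested genes for making selenoproteins 1 rose and 1 fell (median 0.06). Sephs2, which makes the selenium donor and is itself a selenoprotein, fell by 0.57 ± 0.068 (adjusted p = 4.6e-07), and Secisbp2l rose by 0.15 ± 0.050 (adjusted p = 0.019). The Secisbp2l call was lost without any 1 library other than Control replicate 3 (adjusted p of 0.054 to 0.11), and with limma (0.087 to 0.29). Of 16 tested selenoprotein genes outside the set 2 rose and 5 fell (median -0.11), among them Selenok, which fell by 0.25 ± 0.066 (adjusted p = 0.0035), and Msrb1, a methionine sulfoxide reductase gene, which fell by 0.24 ± 0.057 (adjusted p = 0.0018).

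On the lipid side of ferroptosis 4 of 8 tested genes rose and 1 fell (median 0.24). Acsl4, which loads polyunsaturated fatty acids into membranes and promotes ferroptosis, rose to 50.6 ± 1.56 FPKM in CM, against 29.3 ± 0.694 FPKM in Control (log2 fold change 0.81 ± 0.043, adjusted p = 1.8e-12). Gch1, the first enzyme of tetrahydrobiopterin synthesis, which restrains ferroptosis, rose by 0.79 ± 0.094 (adjusted p = 5.4e-07). The remaining genes that rose were Aifm2 (5.80 ± 0.208 FPKM in CM and 3.79 ± 0.264 FPKM in Control) and Dhodh (1.45 ± 0.118 FPKM in CM and 1.11 ± 0.198 FPKM in Control). Acsl3, which favours monounsaturated lipids, fell to 2.99 ± 0.0416 FPKM in CM, against 5.79 ± 0.318 FPKM in Control (adjusted p = 3.8e-09).

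Of 15 regulators 3 rose and 6 fell (median -0.07). Nfe2l2, which encodes NRF2, fell by 0.23 ± 0.045 (adjusted p = 0.00030), and Bach1, a repressor that competes with it, was at 19.8 ± 0.0404 FPKM in CM and 28.0 ± 0.214 FPKM in Control (-0.48 ± 0.042, adjusted p = 4.7e-09). Keap1, which marks NRF2 for degradation, was at -0.18 ± 0.062 (adjusted p = 0.022), a call lost without CM replicate 1 or 3 or Control replicate 1 (adjusted p of 0.076 to 0.10) and with DESeq2 (adjusted p = 0.050187). The small Maf gene Maff rose by 0.74 ± 0.082 (adjusted p = 2e-07). Mafg (-0.07 ± 0.046, adjusted p = 0.22) and Mafk (0.02 ± 0.070, adjusted p = 0.89), also small Maf genes, did not pass the threshold. Mafg was at 16.7 FPKM in CM and 17.8 FPKM in Control, against 8.12 FPKM and 4.93 FPKM for Maff. Atf4 was at 88.4 ± 1.66 FPKM in CM and 90.05 ± 4.64 FPKM in Control (-0.01 ± 0.045, adjusted p = 0.88). Trib3, another ATF4 target, fell by 0.67 ± 0.076 (adjusted p = 2.7e-07), as Chac1 was lower, while Slc7a11 was higher. Ddit3, which encodes CHOP, was at 0.14 ± 0.064 (adjusted p = 0.083, and 0.032 without Control replicate 1), and Cebpb rose by 0.92 ± 0.076 (adjusted p = 1.9e-09). Transcript levels of ATF4 and NRF2 do not give the amount or activity of these proteins, which are controlled largely after transcription.

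**Figure D4:**
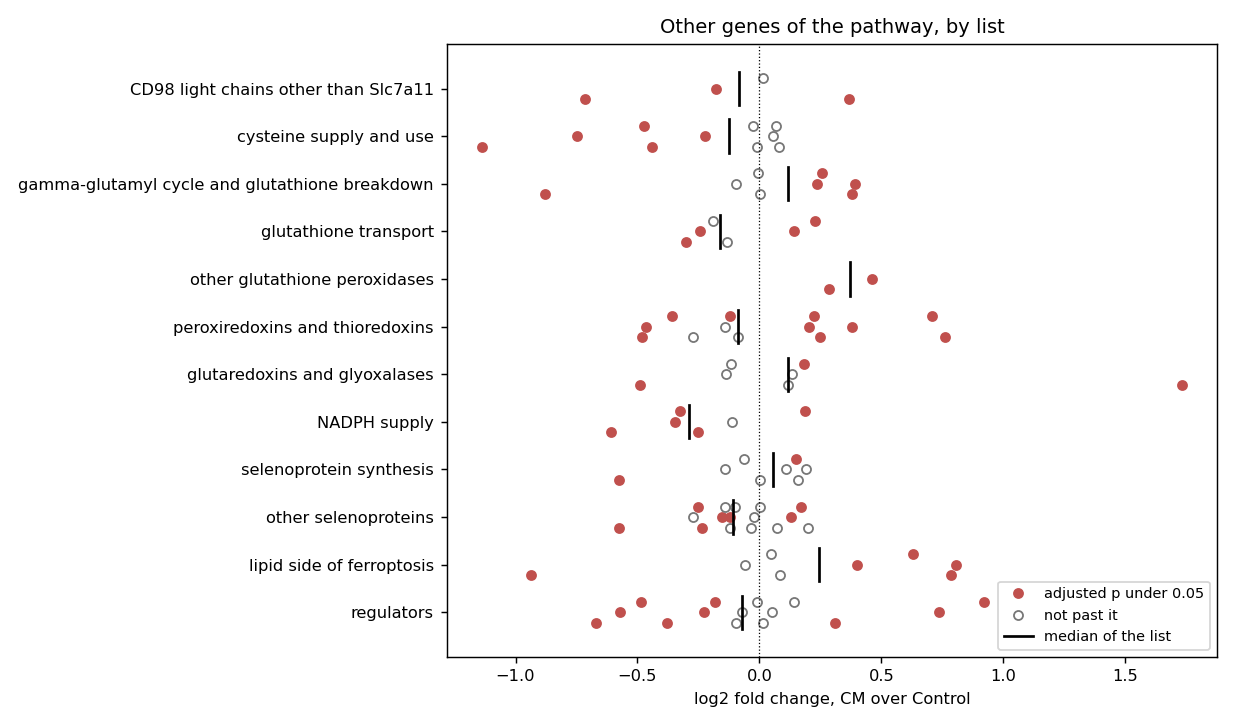
Log2 fold change (CM over Control) of the tested genes outside the set in 12 pathway lists, filled where the adjusted p of edgeR's test was under 0.05, with each list's median (bar). Points lie on both sides of 0 in all lists but the other glutathione peroxidases, and Glrx at 1.73 lies furthest out.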

How the data were processed

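RNA of 3 CM and 3 Control libraries was sequenced as poly(A) RNA with paired ends, per the labels' protocols. GRCm39, HISAT2 2.0.1, cutadapt 1.9.1, DESeq2 and HTSeq 0.6.1 appear in the submitters' processing notes, with no role or order. The authors deposited whole-number counts per gene, not normalized, and, per the file headers, FPKM values, which equalled count over exonic length and library total in 100% of cases (tolerance 0.006). The sources used here do not say whether counting used strand.

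The 12153 genes whose mean over the 6 libraries reached 1 FPKM were fitted with edgeR 4.0.16 in R 4.3.3 (TMM factors, group as the single term, quasi-likelihood test, Benjamini-Hochberg adjustment over all of them, threshold 0.05). The SE was obtained by dividing the size of the unshrunk log2 fold change by the root of the F statistic. Lists are described by counts and medians, with no set test. Of symbols on 2 rows, the row with the longer exonic length was used. The genes and lists were chosen with earlier results of these data known. Named outside the set were up to 3 called genes per list with the largest change and no overlap between groups, 6 regulators whatever their result, the 2 most abundant markers per cell type, and the 3 genes nearest to Slc7a11. Named in addition, after their values were seen, were Cth, Slc7a8, Slc7a10, Chac2, Aifm2, Dhodh, Mafg, Mafk, Camp and genes at or near 0 counts. So were markers that moved against their list (Adgre1, Fcgr1, Mrc1, Vcam1, Pdgfrb, Ngp, Kdr).

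Alternatives were DESeq2 1.42.0, other factors and filters, limma 3.58.1 on FPKM or TPM, the replicate number as a block, and leaving out each library. The fit was tested on simulated data, with 50 genes changed at each fold. It recovered 56% of 1.2-fold, 80% of 1.5-fold, 96% of 2-fold and 100% of 4-fold changes, and 5.14% of its calls were false. A missing call thus does not show that a gene was unchanged. Far fewer genes were changed there than were called in the data, so these shares need not hold for the data.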

Additional observations from a re-analysis of the deposited data

How the results depend on the processing

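Under all 15 alternatives Slc7a11, Gsr and Gpx3 stayed higher and Gclm and Chac1 lower in CM, past the threshold of the alternative's own fit. Their log2 fold changes ranged from 1.23 to 1.46 for Slc7a11, 0.44 to 0.53 for Gsr, 0.23 to 0.32 for Gpx3, -1.91 to -1.77 for Gclm and -1.17 to -0.93 for Chac1. Slc7a11 was lowest, at 1.23, on the log2(FPKM + 1) scale, and Gclc stood at -0.14 on the log2(TPM + 1) scale. Slc3a2, Gss and Gpx1 changed sign in some leave-one-out fits, within -0.12 to 0.11, without being called. Atf4, not called in any fit, ranged from -0.045 to 0.031 when single libraries were left out. Calls over all genes numbered 5578, of which 50.1% were higher in CM, and 4769 to 5873 when a library was left out. On log2(TPM + 1) the share higher was 38.6% of 5079 calls, and the median log2 fold change of all tested genes moved to -0.05. Deviations from the group means correlated at -0.0042, 0.039 and 0.051 for same-numbered CM and Control libraries. For libraries with different numbers the values were -0.059 to 0.019. Such values cannot show whether the numbers pair the samples, since no source used here says what the numbers stand for. With the replicate number as a block 5662 genes were called, and the pathway lists held 59 calls, against 58 without the block. Depth limits Chac1 and Gss most, which had the fewest counts of the 10 genes.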
